A study of Mus musculus with 17 samples.

Results

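Atf5, Atf4, Ddit3 and Asns encode the core of the amino acid stress response, and their RNA was followed here in mouse liver and hippocampus after feeding of dietary oils. All probe sets annotated to 1 of these 4 symbols alone were taken from both chip tables, which gave 4 probe sets, 1 per gene, of the 13069 probe sets on the 2 chips (chip A holds 6529 and chip B 6540). The genes were selected on the liver intensities of Atf5 in the oil and control diets, so the differences of all 4 between diets are given as a description, without a test. Male mice of the outbred Rj:NMRI stock ate a purified powdered diet with 1.1% fungal oil (rich in arachidonic acid), 1.9% fish oil, both oils at these shares, or neither oil (control). The base diet, which every group received, was AIN93G without its fat plus milk fat, palm olein, sunflower oil, soybean oil and medium-chain triacylglycerol oil. Mice were housed 10 per cage and killed on day 57 or 58, with up to 6 hours without food. From the 10 mice of each diet, 5 were selected, and it is not given in the sources used here whether one RNA stood for 1 mouse or a pool. Each oil diet had 1 RNA per tissue. The control had 2 RNAs for liver and 1 for hippocampus, so the liver control pair carries the only measure of spread, and that spread may be technical.

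The integrated stress response starts when kinases that sense amino acid shortage, misfolded protein in the endoplasmic reticulum (ER), double-stranded RNA or haem deficiency phosphorylate the initiation factor eIF2. General translation then slows while the Atf4 mRNA, which carries upstream open reading frames, is translated more. ATF4, a basic leucine zipper (bZIP) transcription factor, induces enzymes of amino acid synthesis such as asparagine synthetase (Asns), amino acid transporters and aminoacyl-tRNA synthetases. It also induces Ddit3, which encodes the pro-apoptotic factor CHOP, and Atf5, a related bZIP factor whose mRNA is under the same translational control. Atf5 is abundant in liver, and in mammalian cells it has been tied to the stress response of mitochondria. The arrays measured RNA, so translation of these mRNAs was not measured.

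ATF4 binds with C/EBP partners at composite elements, and the one in the Asns promoter is the textbook example. The 250 bases upstream of the annotated starts of Asns, Atf5 and Atf4, the members with a measured level in a tissue, are shown because they let this element be read beside the RNA values (RefSeq, GRCm38.p6, each on the strand of its gene). The element was searched as TGATGNAAN on both strands in windows of 250 bases before to 50 bases after each start, and capitals mark a match. The Asns stretch is chr6:7693210-7693459 (minus strand), that of Atf5 is chr7:44816659-44816908 (minus strand), and that of Atf4 is chr15:80254934-80255183 (plus strand).
Asns: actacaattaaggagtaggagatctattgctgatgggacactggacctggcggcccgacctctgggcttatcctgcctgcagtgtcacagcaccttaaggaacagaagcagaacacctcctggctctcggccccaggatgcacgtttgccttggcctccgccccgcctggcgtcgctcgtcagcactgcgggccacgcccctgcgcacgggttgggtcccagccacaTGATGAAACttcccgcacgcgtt
Atf5: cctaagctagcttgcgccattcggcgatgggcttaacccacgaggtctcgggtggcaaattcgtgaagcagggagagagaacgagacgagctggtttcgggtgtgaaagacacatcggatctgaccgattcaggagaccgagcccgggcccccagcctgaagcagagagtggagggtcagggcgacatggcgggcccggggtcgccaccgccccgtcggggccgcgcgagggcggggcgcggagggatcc
Atf4: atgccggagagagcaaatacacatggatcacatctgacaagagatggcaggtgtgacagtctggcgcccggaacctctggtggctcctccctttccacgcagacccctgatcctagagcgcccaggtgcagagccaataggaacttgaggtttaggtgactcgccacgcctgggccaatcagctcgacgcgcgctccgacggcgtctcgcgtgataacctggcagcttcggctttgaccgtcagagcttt
The Asns window held 1 match, TGATGAAAC, on the gene's strand with its first base 23 bases before the start (chr6:7693224-7693232). The windows of both annotated Atf5 starts and those of Atf4 and Ddit3 held no match to these letters. Of all 32851 windows in the table, 1299 (3.95%) held at least 1 match, and of all 27025 genes 1215 (4.50%) had a match in at least 1 of their windows. Counted by gene in the same way, a match stood in 7 of 17 effectors downstream of ATF4, 5 of 13 tRNA synthetases, 3 of 11 genes of amino acid synthesis, 2 of 8 transporters, 1 of 14 eIF2 genes, 1 of 17 ER chaperone genes, 0 of 9 mitochondrial chaperones and proteases and 2 of 18 other bZIP factors. A match is a description of sequence and not a shown binding site.

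The values are the deposited intensities of 17 arrays, whole numbers on a linear scale, with each array set to nearly the same trimmed mean (near 150). Negative values made up 15.2% to 21.1% of the probe sets of a chip A array and 29.6% to 34.5% of those of a chip B array. For log2 values everything below a floor of 15 was raised to it. A probe set was kept in a fit when its mean over the arrays of that fit was at or above the median of its chip. For the fit between tissues this mean was over the arrays of both tissues. In the hippocampus lists a gene was kept by its mean in hippocampus. In liver Atf5 and Atf4 passed this filter and Asns and Ddit3 did not. Hepatocyte markers stood high in the liver arrays, with 6 of 6 measured genes called higher in liver, and all 4 kept neuronal markers were called lower in liver than in hippocampus.

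Atf5 was lower in the liver on every oil diet, and lowest with both oils. Its probe set (aa270796_s_at, chip A) reports a gene at chr7:44812256-44816658. The intensity was 505 with fungal oil, 563 with fish oil and 281 with both oils, against 875 and 864 in the controls. All 3 oil livers lay below both controls, and the controls differed by 0.02 on the log2 scale. With fungal oil the level was 58.1% of the control mean, a log2 change of -0.78 (SE 0.10) or 1.72-fold lower. With fish oil it was 64.7% of the control mean, a log2 change of -0.63 (SE 0.10) or 1.54-fold lower. With both oils it was 32.3% of the control mean, a log2 change of -1.63 (SE 0.10) or 3.09-fold lower. The SE comes from limma's moderated fit, in which the control pair gives 1 residual degree of freedom per probe set.

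The order of Atf5 in liver was thus both oils, fungal oil, fish oil and control from lowest to highest. The neighbours fungal oil and fish oil differed by -0.16 (SE 0.12, fungal minus fish), a difference close to its error. The changes with fungal oil and with fish oil added up to -1.41 on the log2 scale, and the departure of the both-oil liver from that sum was -0.22 (SE 0.16). Each of these SEs rests on the 2 control RNAs. It draws on other probe sets of like brightness (2.17 prior degrees of freedom) as well as on Atf5 itself (1 residual). It is thus not the spread of Atf5 alone. The SEs describe and do not test these differences.

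**Figure D1:**
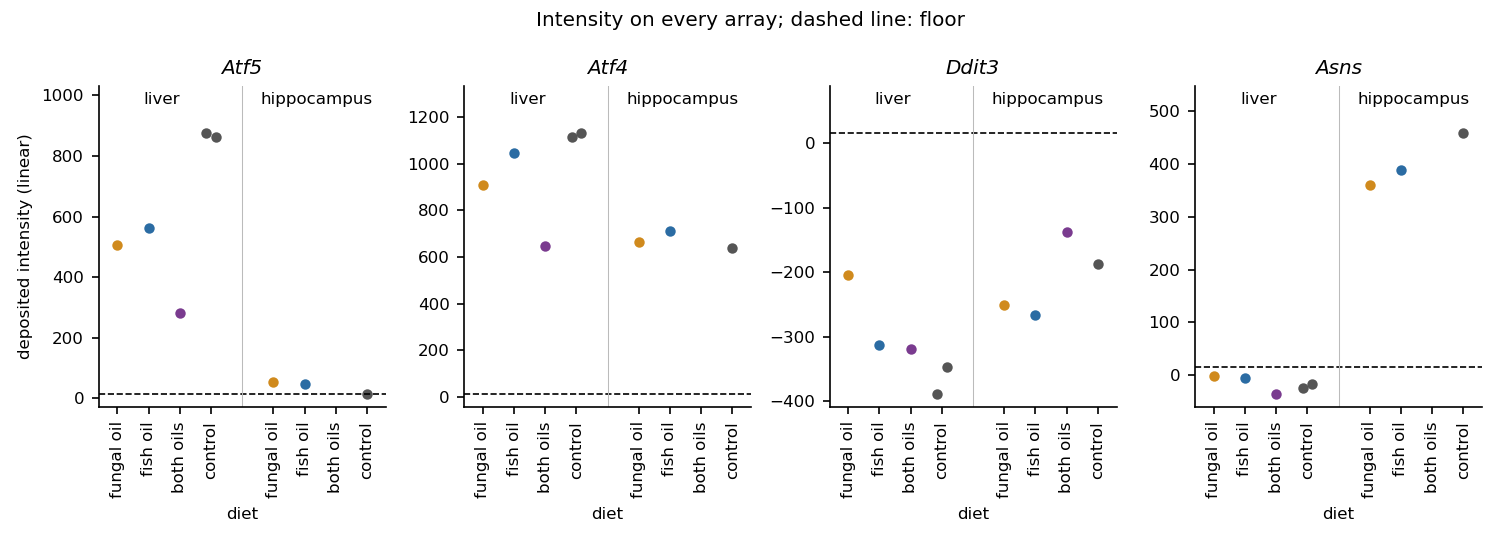
Deposited intensity (linear axis, a separate range per gene) on every array, for liver (left of the grey line) and hippocampus, with 1 point per array and a dashed line at the floor of 15. Atf5 and Atf4 stand above the floor in liver and lowest there with both oils, Asns is above the floor in hippocampus alone, and Ddit3 is below 0 throughout. Chip A of the both-oil hippocampus was not analysed here, so that place is empty except for Ddit3.

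Atf4 showed smaller differences. Its probe set (m94087_s_at, chip A) reports a gene at chr15:80255184-80257545. The liver intensity was 910 with fungal oil, 1045 with fish oil and 647 with both oils, against 1115 and 1129 in the controls. All 3 oil livers again lay below both controls, with fish oil nearest to them. The log2 change was -0.30 (SE 0.09) with fungal oil, -0.10 (SE 0.09) with fish oil and -0.79 (SE 0.09) with both oils. The both-oil value was 1.73-fold lower than control and the fungal oil value 1.23-fold lower, while the difference between the neighbours fish oil and control was close to its error. The single-oil changes of Atf4 added up to -0.40, and the both-oil liver departed from that sum by -0.39 (SE 0.14).

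**Figure D2:**
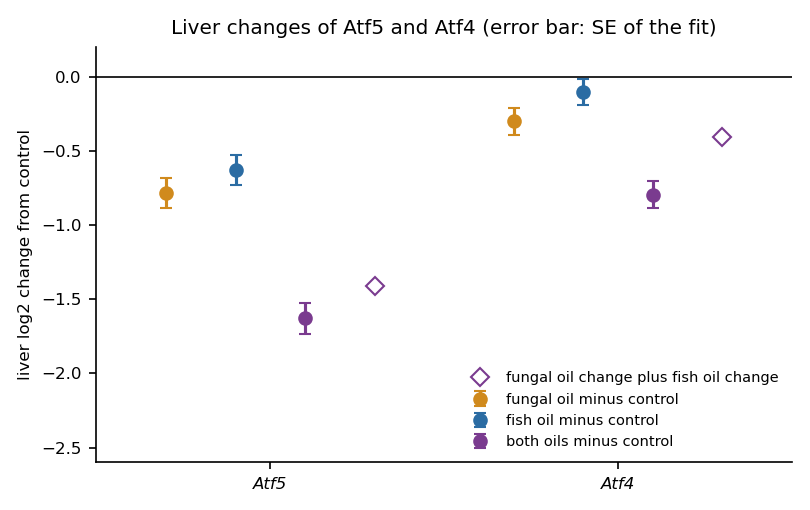
Log2 change from the control mean in liver for Atf5 and Atf4 (vertical axis), with 1 filled point per oil diet and the SE of the fit as error bar; open diamonds give the fungal oil change plus the fish oil change. For Atf5 the both-oil point (-1.63) lies near the diamond (-1.41), and for Atf4 (-0.79) it lies below the diamond (-0.40).

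Asns and Ddit3 gave no usable level in liver. Asns, the enzyme that makes asparagine from aspartate and glutamine (U38940_s_at, chip A, chr6:7675165-7693209), read -1 with fungal oil, -6 with fish oil and -35 with both oils, against -25 and -16 in the controls. All 5 values were below the floor, so no fold between diets can be given. Ddit3 (X67083_s_at, chip B, chr10:127290793-127296291) read -205 with fungal oil, -312 with fish oil and -319 with both oils, against -388 and -347 in the liver controls. In hippocampus Ddit3 read -250 with fungal oil, -266 with fish oil and -138 with both oils, against -188 in the control. Values this far below 0 have no order, and this probe set says nothing on whether CHOP RNA was present.

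Few bright liver probe sets were as far below control as Atf5 with both oils, and more were with a single oil. Of the 3269 brightest liver probe sets (from the 75th percentile upward), 104 (3.18%) were at least as far below control as Atf5 with fungal oil, 182 (5.57%) with fish oil and 25 (0.765%) with both oils. For the differences of Atf4 the counts were 553 (16.9%) with fungal oil, 1106 (33.8%) with fish oil and 114 (3.49%) with both oils. These shares describe where the members stand and are no test, since Atf5 was chosen for its liver values. That all 3 oil livers lay below both controls was common: it held for 781 of 6537 kept probe sets (11.9%), and 823 (12.6%) lay above both. No kept probe set passed limma's Benjamini-Hochberg adjusted p of 0.05 in any oil contrast (0%), while an unadjusted p below 0.05 was reached by 599 (9.16%) with fungal oil, 724 (11.1%) with fish oil and 647 (9.9%) with both oils. Fitted on the bright probe sets alone, the same test called 26 (0.795%), 39 (1.19%) and 37 (1.13%) with fungal oil, fish oil and both oils.

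The 2 liver controls also show the spread over many genes. Over the 1633 bright probe sets of chip A, the log2 difference between the controls had an SD of 0.279. Over all genes the median log2 change in liver was -0.02 with fungal oil, 0.00 with fish oil and 0.04 with both oils (3513 genes). Below control lay 52.2%, 49.8% and 45.9% of these genes in the same order of diets.

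Some markers of several cell types differed from control in the oil livers, and others of the same lists did not. The markers of Kupffer cells and other macrophages (Cd5l, Clec4f, Lyz2, Csf1r, Cd68, Adgre1 and C1qa) were lower than control for 6 of 6 kept genes with fungal oil, 5 of 6 with fish oil and 6 of 6 with both oils, with median log2 changes of -0.70, -0.76 and -0.58. Their summed intensity on chip A was 608, 825 and 711 with fungal oil, fish oil and both oils, against 988 and 995 in the controls, and on chip B it was 115, 136 and 119, against 276 and 267 (negative values counted as 0). The summed hepatocyte markers on chip A read 9724, 12584 and 9548 in the same order of oil diets, against 10272 and 10239 in the controls. Among the other markers, Alas2, of haem synthesis in erythroid cells, read 549, 612 and 664 in the oil livers, against 1081 and 990 in the controls. The other kept genes of that list overlapped the controls. Hba-a1 read 8868, 11494 and 6258 against 9689 and 8267, and Ptprc read 539, 559 and 508 against 614 and 512. Acta2, of stellate and smooth muscle cells, read 267, 274 and 61, against 209 and 227 in the controls. Kdr, of endothelial cells, read 166, 314 and 414, against 404 and 326 in the controls. From the same list, Col1a1 read 97, 124 and 103 against 158 and 103, and Col3a1 read 258, 302 and 233 against 270 and 248. Both overlapped the controls. In bulk tissue fewer cells of a type and less RNA per cell cannot be told apart, and the part of other cell types in the Atf5 difference was not tested. The ratio of 3' to 5' Gapdh signal, a sign of RNA quality, was 2.48, 1.95 and 1.89 with fungal oil, fish oil and both oils on chip A, against 2.07 and 1.91 in the controls. On chip B it was 2.51, 3.26 and 1.92, against 2.23 and 1.99 in the controls, so fish oil stood highest there. The same ratio for actin on chip B was 4.17, 3.33 and 3.32, against 3.71 and 3.38 in the controls. By actin, fish oil was thus below both controls. The part of RNA quality in the chip B values was not tested.

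Among other liver genes, those with the pattern nearest to Atf5 across the 3 oil diets were Dpm2, Acly, Gaa, Ppp1r14b and Elovl6. Likeness was the root mean square distance between the 3 log2 changes, over 1877 candidate genes from the 75th percentile of brightness upward, and rests on 3 oil livers that share the same controls. Dpm2, a regulatory subunit of dolichol-phosphate mannose synthase, was nearest (distance 0.165) and read 146 with fungal oil, 129 with fish oil and 80 with both oils, against 257 and 227 in the controls. Acly, ATP citrate lyase, which supplies cytosolic acetyl-CoA for fatty acid and sterol synthesis, followed at 0.239. It read 1568, 1754 and 878 with fungal oil, fish oil and both oils, against 3118 and 3275 in the controls.

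Gaa, the lysosomal acid alpha-glucosidase, stood at a distance of 0.263, with 199, 193 and 83 in the oil livers against 181 and 369 in the controls, which differ from each other more than the single-oil livers differ from their mean. Ppp1r14b, an inhibitor of protein phosphatase 1, stood at 0.282 and read 149, 133 and 93 against 220 and 212 in the controls. Elovl6, which elongates saturated and monounsaturated fatty acids, stood at 0.326 and read 284, 431 and 274 against 618 and 714 in the controls. All 5 were lowest with both oils, as was Atf5, which largely follows from their choice by nearness to it. The genes nearest to Atf4 were the ribosomal protein gene Rpl28 (0.0569), the glutathione transferase Gstm2 (0.0685) and the liver phosphofructokinase Pfkl (0.0823). Rpl28 read 2994 with fungal oil, 3706 with fish oil and 2261 with both oils, against 3820 and 3733 in the controls.

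**Figure D3:**
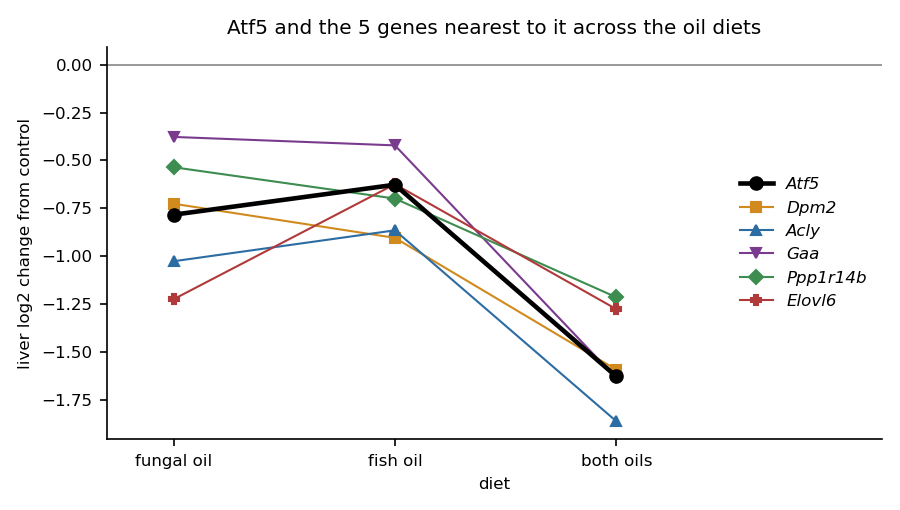
Log2 change from the control mean in liver (vertical axis) on the 3 oil diets for Atf5 (thick black line) and the 5 genes with the nearest pattern, 1 liver RNA per diet; lines join the diets of a gene only to guide the eye. With both oils Atf5 (-1.63), Dpm2 (-1.59) and Gaa (-1.64) nearly coincide, and Acly (-1.86) is lowest.

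The rest of the pathway was read from 8 lists. No list gene passed the adjusted p of 0.05 in the fit over all kept probe sets, so the counts below say how many lay above or below control. Over all genes 52.2%, 49.8% and 45.9% lay below control with fungal oil, fish oil and both oils. Of all kept probe sets 11.9% lay below both controls on all 3 oil diets and 12.6% above both. Of 7 amino acid synthesis and one-carbon genes on the arrays, 5 were kept. Below control were 4 of them with fungal oil, 3 with fish oil and 5 with both oils, with medians of -0.29, -0.14 and -0.11 on the log2 scale. Got1, the cytosolic aspartate aminotransferase, was the brightest and read 798 with fungal oil, 656 with fish oil and 467 with both oils, against 1051 and 900 in the controls. Its log2 change with both oils was -1.06 (SE 0.14, limma adjusted p = 0.390, and 0.0558 among bright probe sets alone). Got1, Psat1 and Aldh18a1 were below both controls on all 3 oil diets. Psat1, of serine synthesis, differed little, with 48, 37 and 49 in the oil livers against 53 and 53 in the controls. Shmt2, the mitochondrial serine hydroxymethyltransferase, read 97 with fungal oil, 199 with fish oil and 187 with both oils, against 150 and 239 in controls that themselves lie far apart. Mthfd2, a mitochondrial folate enzyme, read 96, 105 and 82 in the oil livers, against 88 and 83 in the controls.

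Amino acid transporters were mostly dim. Of 9 on the arrays 4 were kept, of which 2 lay above control with fungal oil, 3 with fish oil and 4 with both oils (medians -0.13, 0.26 and 0.40). Slc3a2, the heavy chain shared by several transporters, read 496, 571 and 594 with fungal oil, fish oil and both oils, against 458 and 485 in the controls. Slc7a2, a cationic amino acid transporter, read 97, 101 and 115 in the oil livers, against 92 and 80 in the controls. Both lay above the 2 controls on every oil diet. The log2 changes of Slc3a2 were 0.07, 0.28 and 0.33 (SE 0.14 each), the first of them within its error. Those of Slc7a2 were 0.18, 0.24 and 0.42 (SE 0.23 each). The glycine transporter Slc6a9 read 571, 904 and 944, against 841 and 621 in the controls. The dim glutamate transporter Slc1a1 read 22, 35 and 97, against 42 and 58 in the controls.

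Cytosolic aminoacyl-tRNA synthetases, which charge tRNAs, went both ways. Of 15 on the arrays 12 were kept, and 6 lay below control with fungal oil, 8 with fish oil and 8 with both oils (medians -0.12, -0.13 and -0.28). Nars, Tars, Wars and Yars were below both controls on all 3 oil diets and Cars was above both. Nars, for asparagine, read 514 with fungal oil, 463 with fish oil and 461 with both oils, against 619 and 638 in the controls. Tars, for threonine, singled out after its values were seen, read 334, 433 and 303 in the oil livers, against 602 and 491 in the controls. Its log2 change was -0.70, -0.33 and -0.84 (SE 0.18 each). Wars, for tryptophan, was dim at 35, 65 and 45 in the oil livers, against 89 and 105 in the controls. Farsb, a subunit of the enzyme for phenylalanine, read 86, 114 and 52 in the oil livers, against 63 and 78 in the controls. Aars, for alanine, the brightest of the list, read 674, 629 and 610 in the oil livers against 677 and 632 in the controls.

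Genes of the upstream arm at eIF2 lay on both sides of control. Of 10 genes for eIF2 kinases, eIF2, its exchange factor and its phosphatase on the arrays 8 were kept, with medians of -0.18, -0.05 and 0.01 with fungal oil, fish oil and both oils, and none lay outside both controls on all 3 diets. Ppp1r15a, the inducible phosphatase subunit, read at most 1 on the liver arrays. Eif2s3x, the gamma subunit of eIF2, read 480, 516 and 522 in the oil livers against 558 and 514 in the controls, and Eif2s2, its beta subunit, read 246, 325 and 319 against 300 and 281. Ppp1cc, a catalytic subunit of protein phosphatase 1, read 76, 42 and 54 in the oil livers, against 101 and 76 in the controls. Its log2 change was -1.06 with fish oil and -0.70 with both oils. Of the exchange factor eIF2B, Eif2b4 read 193 with fungal oil, 305 with fish oil and 259 with both oils, against 285 and 281 in the controls. Eif2b5 read 162, 219 and 168, against 106 and 163 in the controls.

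Of 12 effectors downstream of ATF4 on the arrays 7 were kept, with medians of -0.04, 0.08 and 0.03. Trib3, a pseudokinase induced by ATF4 and CHOP, read 82 with fungal oil, 70 with fish oil and 75 with both oils, against 60 and 90 in the controls. Atf3, another bZIP factor of the response, was at or below 7 on every liver array. Herpud1, a component of ER-associated degradation, ran the other way from Atf5 and read 1626 with fungal oil, 1398 with fish oil and 1902 with both oils, against 991 and 1076 in the controls. Its log2 change was 0.66, 0.44 and 0.88 (SE 0.10 each). With both oils it passed the test among bright probe sets alone (limma adjusted p = 0.0459) but not in the fit over all kept probe sets (0.390). Vegfa, the endothelial growth factor, was the one gene of this list below both controls on all 3 oil diets, at 55, 58 and 52 against 66 and 64. Sqstm1, the autophagy receptor p62, read 1953, 2148 and 1859 in the oil livers against 2077 and 1987 in the controls.

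Of 15 genes for ER chaperones and the unfolded protein response on the arrays 13 were kept, and 10 lay below control with fungal oil, 7 with fish oil and 8 with both oils (medians -0.11, -0.03 and -0.07). Hspa5, the chaperone BiP, read 1996 with fungal oil, 3014 with fish oil and 1820 with both oils, against 2989 and 2614 in the controls. Manf, a secreted factor induced by ER stress, read 703, 1345 and 840 in the oil livers against 1113 and 1184 in the controls. Creld2, another ER stress gene, read 72, 246 and 163 against 222 and 289 in the controls. Hspa5, Manf and Creld2 were thus below both controls with fungal oil and with both oils but not with fish oil. Of the 13 kept, 4 (Pdia4, Pdia6, Dnajc3 and Xbp1) were below both controls on all 3 oil diets and 2 (Pdia3 and Herpud1) were above both. Among all kept probe sets these shares were 11.9% and 12.6%. These groupings were made after the values were seen. Pdia6, a protein disulfide isomerase, read 78, 68 and 86 in the oil livers, against 110 and 145 in the controls. P4hb, another such isomerase, read 2483, 2679 and 2420 in the oil livers, against 2671 and 2417 in the controls.

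Mitochondrial chaperones and proteases also lay on both sides of control. Of 8 on the arrays 7 were kept, with medians of 0.07, -0.03 and 0.06. Hspd1, the chaperonin HSP60, read 3861, 4562 and 3530 in the oil livers against 3694 and 3091 in the controls. Clpp, the matrix protease, read 108, 133 and 103 against 166 and 118 in the controls. Dnaja3, a co-chaperone of mitochondrial HSP70, read 345, 299 and 459, against 316 and 282 in the controls, a log2 change of 0.62 (SE 0.14) with both oils. Timm23, of the inner membrane translocase, read 1017, 1269 and 1208, against 1162 and 1126 in the controls. The protease Htra2 read 84, 58 and 67, against 88 and 73 in the controls. None of the 7 lay outside both controls on all 3 oil diets.

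Of 15 other bZIP factors on the arrays 12 were kept, with medians of 0.07, 0.08 and -0.08. Cebpb, a partner of ATF4, read 1071 with fungal oil, 1021 with fish oil and 729 with both oils, against 793 and 608 in the controls. Dbp, a clock-controlled factor, read 581, 174 and 747, against 176 and 162 in the controls, and passed the test among bright probe sets with fungal oil (limma adjusted p = 0.0182) and with both oils (0.00704). Crem was the one factor below both controls on all 3 oil diets, at 35, 51 and 45 against 63 and 66. Batf was the one above both, at 148, 221 and 134 against 114 and 105. Nfe2l1 read 473, 527 and 487 in the oil livers, against 595 and 490 in the controls. Nfil3, a repressor with the same binding sites as Dbp, read 53, 63 and 36, against 54 and 84 in the controls.

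**Figure D4:**
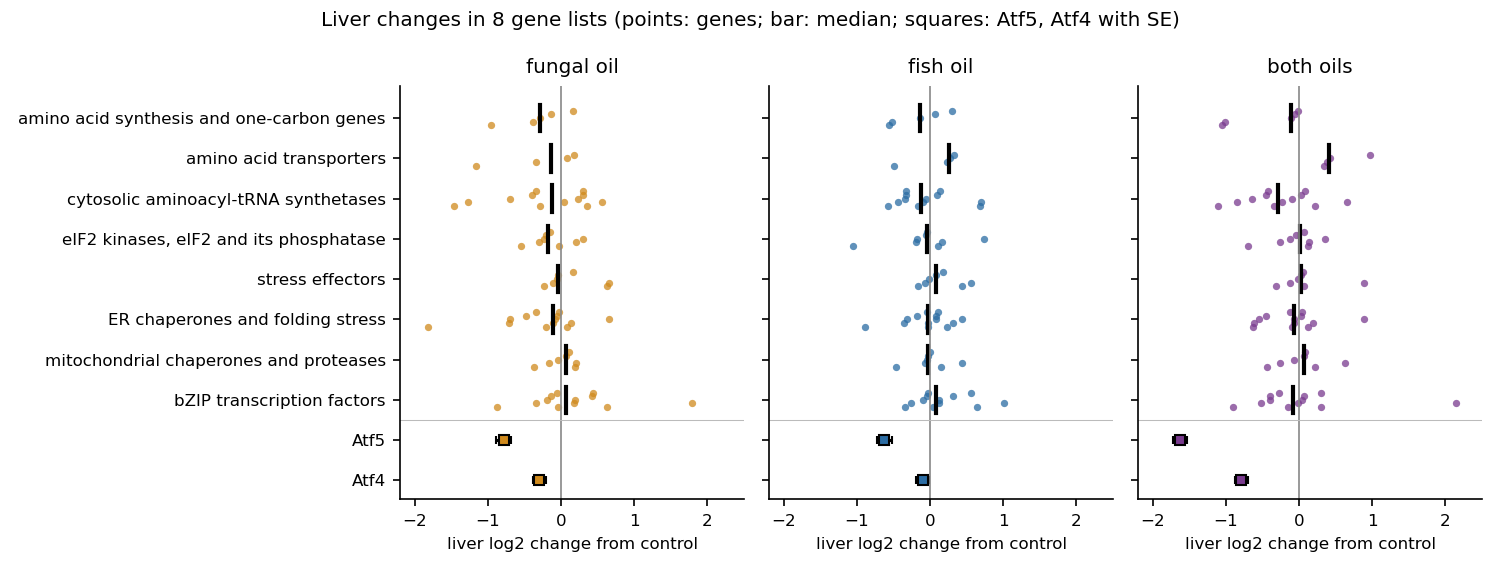
Log2 change from the control mean in liver (horizontal axis) for the kept genes of 8 lists (points), their medians (black bars), and Atf5 and Atf4 (squares with SE), in 1 panel per oil diet. The list medians run between -0.29 and 0.40. They are not set against Atf5, a single gene chosen for its liver values. The lowest list gene lay below Atf5 with fungal oil (Creld2 -1.81, Atf5 -0.78) and with fish oil (Ppp1cc -1.06, Atf5 -0.63). With both oils it lay above Atf5 (Wars -1.10, Atf5 -1.63).

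In hippocampus, with 1 RNA per diet, there is no replicate and no test. Atf5 was dim, at 54 with fungal oil and 49 with fish oil, against 16 in the control, so the control lay just above the floor. The log2 differences of 1.75 and 1.61 depend on that value, and with a floor 2.5 times as high they shrink to 0.53 and 0.39. Among probe sets at or above the median of an array on their brighter side, 339 of 7038 (4.82%) were at least 2-fold higher with fungal oil and 311 of 7016 (4.43%) with fish oil. Atf5 was not among these, since it stood at percentile 48.6 of its array with fungal oil and 46.0 with fish oil. The oil hippocampi also differed from the control in markers of choroid plexus and meninges (Ttr, Ptgds, Kl and Igf2), whose summed intensity on chip A was 4482 with fungal oil and 2446 with fish oil, against 1323 in the control. All 4 were higher with fungal oil. With fish oil Ptgds (1843 against 624) and Igf2 (415 against 353) were higher and Ttr (157 against 304) and Kl (119 against 145) lower, with a median log2 difference of -0.03. The part of these neighbouring tissues in the Atf5 difference was not tested.

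Atf4 was steady in hippocampus at 666 with fungal oil and 713 with fish oil, against 639 in the control, log2 differences of 0.06 and 0.16. Asns, unlike in liver, was well above the floor, at 360 with fungal oil and 389 with fish oil, against 458 in the control (log2 differences -0.35 and -0.24). Over the bright probe sets of chip A the SD of the log2 difference from control was 0.285 with fungal oil and 0.252 with fish oil, so the differences of Atf4 are smaller than that SD and those of Asns are close to it. Among the lists, 6 of 7 kept effectors lay below control with fungal oil and 6 of 7 with fish oil (medians -0.27 and -0.13), and the other lists had medians between -0.23 and 0.07 on these 2 diets. Over all genes 53.2% lay below control in hippocampus with fungal oil and 49.2% with fish oil. Both-oil values exist here for chip B alone, which holds none of Atf5, Atf4 and Asns.

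The members stood differently in the tissues. Liver and hippocampus were compared after scaling all arrays to the same trimmed mean, in a limma fit of tissue and diet, where 3257 of 6535 kept probe sets (49.8%) were called at an adjusted p of 0.05 and at least 2-fold. Of these, 1325 (20.3%) were higher and 1932 (29.6%) lower in liver, so a call between the tissues is common. Of the members, Atf5, Atf4 and Asns were in this fit, and Atf5 and Asns passed both thresholds. Each of these was kept through the tissue where it is high, so their count is not set against that share. Ddit3 was not kept. Tissue and the preparation of each organ cannot be told apart. The ratio of 3' to 5' Gapdh signal on chip A was 1.89 to 2.48 in liver and 0.84 to 0.91 in hippocampus. On chip B it was 1.92 to 3.26 in liver and 0.88 to 0.95 in hippocampus, with no value for fish oil there. This ratio, a sign of RNA quality, thus differed with tissue, and the part of RNA quality in the tissue differences was not tested.

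Atf5 was higher in liver, with a log2 difference of 4.34 (SE 0.49, 5 liver and 3 hippocampus arrays) and 16.5-fold between the means. It was kept in this fit through its liver values, on which it was selected, and stood at percentile 42.7 in hippocampus, so the difference is given as a description. Every liver array, the lowest being 281 with both oils, exceeded every hippocampus array, the highest being 54. Atf4 was close between tissues: it read 647 to 1129 in liver and 639 to 713 in hippocampus, a log2 difference of 0.64 (SE 0.09, limma adjusted p = 0.00107), under the 2-fold asked of a call, and the ranges overlapped through the both-oil liver. An adjusted p of 0.05 alone was passed by 69.8% of kept probe sets. Asns was lower in liver, where all arrays were below the floor, by at least 26.8-fold against the floor of 15 in every liver array. Asns was kept in this fit through its hippocampus values, so this too is a description. Ddit3 was below the floor in both tissues.

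Among other genes of the response, 28 of the 65 kept in the 8 lists, each counted once, were called between tissues (43.1%), against 49.8% of all kept probe sets. Of the 13 kept ER chaperone and unfolded protein response genes 7 were called higher and 0 lower in liver, with a median log2 difference of 1.65. Among them Hspa5 was higher by 1.72 (SE 0.15, limma adjusted p = 5.34e-05), Manf by 2.70 (SE 0.16, 1.55e-05) and Herpud1 by 2.68 (SE 0.14, 9.10e-06). Of 8 kept effectors 4 were called higher and 2 lower in liver, and of 12 kept synthetases 1 was called higher and 2 lower. For the other lists the counts were 2 higher and 3 lower of 6 amino acid synthesis genes, 0 and 1 of 4 transporters, 1 and 1 of 8 eIF2 genes, 1 and 0 of 7 mitochondrial genes, and 4 and 1 of 10 other bZIP factors. Cebpb was higher in liver by 2.42 (SE 0.21, limma adjusted p = 4.57e-05), while Slc3a2 differed by -0.77 (SE 0.09, adjusted p = 0.000273), under 2-fold.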

How the data were processed

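Total RNA from liver and hippocampus was hybridised to a 2-chip mouse oligonucleotide array, 8 arrays of chip A and 9 of chip B. The deposited values are intensity values on a linear scale, 1 per probe set and array. The values themselves show that each array was set to a common trimmed mean; the software is not given in the sources used here. Probe sets were named from the platform annotation, and a gene was represented by its brightest probe set in the tissue. Intensities were raised to a floor of 15 (0.1 times 150) and taken to log2. Diets were compared in liver with limma 3.58.1 (R 4.3.3; lmFit and eBayes with an intensity trend), per chip, with p-values of both chips adjusted together by Benjamini-Hochberg. The control pair gave 1 residual degree of freedom, and eBayes added 2.17 (chip A) and 2.05 (chip B) prior degrees of freedom. Hippocampus diets were set side by side as log2 ratios. The tissue fit had tissue and diet as terms. In simulated data with normal noise, the fits returned the size of known changes in bright probe sets. The share of changed probe sets called was checked for the tissue fit alone. How often the liver fit calls a true change was not tested. Genes were named from the 8 lists as those called in a liver contrast, the brightest 2, and those with the largest rise and fall per diet, plus the 5 genes nearest to Atf5 and the 3 nearest to Atf4; any other gene named was chosen after its values were seen. The members and lists were chosen with earlier results of these data known. Alternatives were quantile scaling, other floors, other filters, no trend, an additive fit, tissue without diet, mean over probe sets, and leaving out a control RNA. The number of arrays limits the precision.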

Additional observations from a re-analysis of the deposited data

Results flagged for a closer look

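Atf5 differed from its tissue's control in opposite directions in the 2 tissues. With fungal oil the log2 change was -0.78 in liver and the log2 difference 1.75 in hippocampus, a gap of -2.54 between the tissues. With fish oil the values were -0.63 in liver and 1.61 in hippocampus, a gap of -2.24. The hippocampus values of Atf5 are near the floor, with 16 in the control. Atf4 values also had opposite signs. The gap was -0.36 with fungal oil (-0.30 in liver and 0.06 in hippocampus) and -0.26 with fish oil (-0.10 in liver and 0.16 in hippocampus). The hippocampus differences and the fish oil liver change of Atf4 were so small that no direction is read from them. With 1 RNA per diet in each tissue these differences between tissues were not tested.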

How the results depend on the processing

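The number of probe sets called in liver depended on which were fitted. Against 0 for each oil diet at the filter at the median, 328, 395 and 341 were called with fungal oil, fish oil and both oils when no filter was set, and 26, 39 and 37 among bright probe sets alone; an additive fit of the oils called 5 with fungal oil, 0 with fish oil and 16 with both oils. The cause was not tested. The additive fit also gave Atf5 changes of -0.88 with fungal oil and -0.72 with fish oil and Atf4 changes of -0.47 and -0.27. With a floor 2.5 times as high the hippocampus differences of Atf5 were 0.53 with fungal oil and 0.39 with fish oil, because the control value lies below that floor. The bound on Asns between tissues follows the floor, with fitted values from -5.76 to -3.44. All other values of Atf5, Atf4 and Asns kept their direction and size under the alternatives run: in liver Atf5 ranged from -1.66 to -1.60 with both oils, and its tissue difference from 3.85 to 4.49. Without 1 of the controls Atf5 ranged from -0.79 to -0.77 with fungal oil, from -0.64 to -0.62 with fish oil and from -1.64 to -1.62 with both oils. Such a fit has no residual degree of freedom, so it gives values and no calls. Of the values of named list genes, 340 kept their direction and call, 14 moved and 5 newly passed the test. Where 1 of the controls was left out no call exists, and like size stood in for it. Elsewhere size was not compared. Cebpb with fish oil, 0.56 in the main fit and 0.08 in the additive fit, counts among the 340. For the list medians, 322 values stayed within an SD of the main value and 10 moved. Values within that SD could still change sign. In liver the median of amino acid synthesis genes ranged from -0.28 to 0.07 with fish oil and from -0.54 to -0.04 with both oils. That of transporters ranged from -0.34 to 0.02 with fungal oil, and that of other bZIP factors from -0.15 to 0.19. No paired analysis was possible because the groups share fewer than 2 replicate numbers. Signal over background limits Ddit3 in both tissues and Asns in liver.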
